A study of Sus scrofa with 6 samples.

Results

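The genes described here drive DNA replication and mitosis, and their signals were compared between Dox-injected and PBS-injected piglets in the LV (left ventricular) free wall. Of 60 listed genes, 35 had a probe set that the platform annotation gives to that gene alone, out of 6765 genes so named on the array. These were 15 of 28 replication genes, 19 of 29 mitosis genes and CDK2 as 1 of 3 kinase and cyclin genes of the entry into S phase, which was put in neither class. Where a gene had several probe sets, the one with the highest mean log2 signal over all arrays was read. The remaining 25 genes, among them MKI67 and CDK1, are not analysed here, and 2 of these, DUT and RFC2, share their probe sets with another gene.

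Doxorubicin (Dox) is an anthracycline that inhibits type II topoisomerases and is toxic to cardiac muscle. Large White piglets received a single intravenous dose of 2.0 mg/kg Dox (n = 3) or PBS, the saline vehicle (n = 3), at 8 days of age, and tissue was taken 3 weeks later, at 28 days by the sample labels. The study's methods state slightly different days and a dose range, and describe the Dox-injected animals as being in diastolic heart failure. Total RNA of each animal was hybridized to 1 Affymetrix Porcine Genome Array, a short-oligonucleotide array whose values are MAS5 signals on a linear scale. The tissue holds myocytes together with endothelial cells, fibroblasts and blood cells, so fewer dividing cells and less RNA per dividing cell cannot be told apart in these measurements.

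Replication genes are switched on by E2F factors as a cell enters S phase. Their products load the MCM helicase, supply nucleotides, copy the DNA and package it with histones. Mitosis genes are switched on later, in G2 and M phase. They encode the B cyclins that activate CDK1, the kinases and motors that build the spindle, and the checkpoint and the ubiquitin ligase APC/C that time chromosome separation. Cardiac myocytes of mammals mostly leave the cell cycle after birth, and endothelial cells and fibroblasts divide as the heart grows. Which cells gave the signals in these piglets was not measured.

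As a check of the tissue, the myosin gene MYH7 had signals of 5898.7, 6615.7 and 6828.9 with PBS and 7979.8, 7379.5 and 9785.6 with Dox, and all 12 measured cardiomyocyte markers were above the Tag range on at least 3 arrays. The Tag range is the signal at or below the highest of 17 Tag probe sets, made of sequences foreign to the pig, between 2.5 and 6.3 by array. The median signal was 16.8 to 17.8 on the PBS arrays and 13.5 to 15.6 on the Dox arrays, so each Dox array was dimmer. The part of this in the results was not tested, and values under other scalings are given at the end. Signals correlated between any pair of arrays with r of 0.897 to 0.945 over all probe sets. Added hybridization spikes gave a geometric mean of 617 to 676 on the PBS arrays and 784 to 1100 on the Dox arrays, highest on Dox replicate 3, and the part of this in the results was not tested. PBS replicate 1 stood apart in the genes described here, so values without it are also given. Dox replicate 3 was the lowest array for 20 of the 35 measured genes, against 29.7% of all probe sets.

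Signals of replication and mitosis genes were lower after Dox than after PBS for most members. The log2 ratio of Dox to PBS (the difference of the mean log2 signals) was below 0 for 32 of 35 members, with a median of -0.95 against -0.10 over all 23999 probe sets tested. Each Dox-injected piglet was below each PBS-injected piglet for 22 of 35 members, against 10.1% of all probe sets. The reverse order was seen for 0 members, against 6.19% of all probe sets. At a raw p up to 0.05 from limma, 19 members were lower, against 5.92% of all probe sets, and 0 were higher, against 3.62%. Of the 19, 15 also had a fold of at least 2, against 3.65% of all probe sets. Among the 30 members above the Tag range on at least 3 arrays, 18 were lower at that p, 14 of them by 2-fold or more, and 0 were higher, against 7.18%, 3.98% and 3.76% of the probe sets equally above it. Groups without overlap numbered 20 lower and 0 higher among these 30, against 12.4% and 6.78%.

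No single gene passed the test. With Benjamini-Hochberg adjustment over all probe sets, limma called 0 members at an adjusted p of at most 0.05 and a fold of at least 2, against 0.0% of all probe sets, and the lowest adjusted p of a member was 0.521. That value also holds for every other gene given with a standard error (SE) and no adjusted p of its own. The methods' t-test also called 0, and at a raw p up to 0.05 it had 11 members lower, against 4.34% of all probe sets. With 3 animals a side, 0.1 is the smallest p of an exact permutation test (two-sided), and each member without overlap reached it. Values for single genes are therefore measured differences with their errors.

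**Figure D1:**
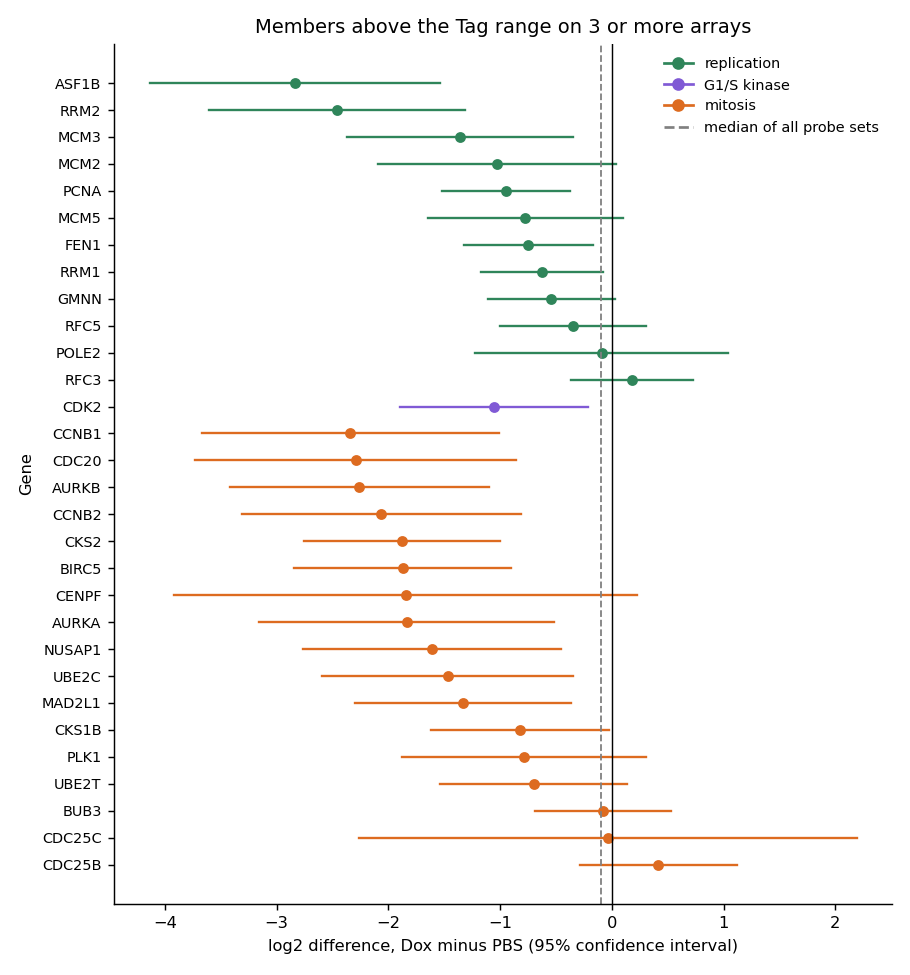
Log2 ratio of Dox to PBS (horizontal axis, points with 95% confidence intervals from limma, 3 arrays per group) for the 30 members above the Tag range on at least 3 arrays, coloured by class. The differences run from -2.84 for ASF1B to 0.42 for CDC25B, and the dashed line is the median of all probe sets at -0.10; intervals are not adjusted for the number of probe sets.

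Among the replication genes, the MCM2 to MCM7 helicase unwinds the origin. MCM3 had PBS signals of 28.3, 17.3 and 11.3 and Dox signals of 6.1, 8.1 and 6.6. The groups did not overlap, and the log2 ratio was -1.36 (SE 0.44), a 2.57-fold lower geometric mean. MCM2 had signals of 79.5, 33.5 and 26.9 in controls and 28.5, 20.9 and 14.1 after Dox. One Dox-injected piglet lay within the range of the controls, and the log2 ratio was -1.03 (SE 0.47, limma adjusted p 0.528). Without PBS replicate 1 it was -0.56. MCM5 had a log2 ratio of -0.77 at its brightest probe set and of -1.03 at a second one, without overlap at either. The MCM4 signal was above the Tag range on 1 array only.

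PCNA, the sliding clamp that holds the polymerase on DNA, had signals of 620.8, 387.3 and 345.3 with PBS and 257.8, 206.9 and 216.6 with Dox (451 ± 148 and 227 ± 27, SD, n = 3). All Dox-injected piglets lay below the lowest control, with a log2 ratio of -0.95 (SE 0.25). The clamp loader genes differed less. RFC3 had PBS signals of 129.5, 126.1 and 134.3 and Dox signals of 127.5, 199.1 and 125.6, a log2 ratio of 0.18 (95% interval -0.37 to 0.73). RFC5 had a log2 ratio of -0.35 (95% interval -1.0 to 0.31). The groups overlapped for both loader genes.

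RRM1 and RRM2 encode the large and small subunits of ribonucleotide reductase, which makes deoxynucleotides, and RRM2 is the subunit made mainly in S phase. RRM2 had signals of 81.1, 37.5 and 33.6 in controls and 13.5, 9.5 and 4.8 after Dox. The geometric mean was 5.5-fold lower in the Dox-injected group, a log2 ratio of -2.46 (SE 0.50). RRM1 had signals of 484.6, 400.4 and 341.9 with PBS and 331.1, 271.6 and 202 with Dox, a 1.54-fold lower geometric mean (log2 ratio -0.62, SE 0.24). Neither subunit showed an overlap of the groups. TYMS, which makes thymidylate, had PBS signals of 8.8, 5.7 and 3.9 and Dox signals of 3.4, 2.6 and 3.7, above the Tag range on 2 of 6 arrays, so no fold is read.

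ASF1B, a histone chaperone that brings new histones to replicated DNA, had the lowest log2 ratio of the members with all arrays weighted equally. Its signals were 60.3, 24.4 and 23.8 in PBS-injected and 5.8, 7.2 and 2.3 in Dox-injected piglets, the last of these within the Tag range. The geometric mean was 7.14-fold lower (log2 ratio -2.84, SE 0.57). With 16 added before log2 it was -1.24, against -1.80 for CCNB1, and with array weights it was -2.23, against -2.74 for AURKB. No array showed its second probe set above the Tag range. CHAF1A, a subunit of the chaperone that acts next to ASF1, was likewise never above the Tag range.

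FEN1, the nuclease that trims Okazaki fragments, had signals of 87.1, 65 and 62.2 in controls and 42.3, 45.1 and 38.9 after Dox. The groups did not overlap, with a log2 ratio of -0.75 (SE 0.25). Averaged with its second probe set, which no array showed above the Tag range, it was -0.070. GMNN, which encodes geminin, the inhibitor of repeated origin licensing, had a log2 ratio of -0.54 (SE 0.25, limma adjusted p 0.533) without overlap. POLE2, a subunit of the leading strand polymerase, depended on the probe set. The brighter one had a log2 ratio of -0.09, and the other had signals of 12.8, 6.8 and 6.2 with PBS and 2.5, 3.6 and 3 with Dox, with the Dox-injected signals within the Tag range.

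CDK2, the kinase that starts S phase, had PBS signals of 258, 150.9 and 151.1 and Dox signals of 115.2, 111.5 and 51.2. The groups did not overlap, and the log2 ratio was -1.05 (SE 0.37). A second CDK2 probe set above the Tag range on all arrays had a log2 ratio of -0.85 (SE 0.41, limma adjusted p 0.541). The mean of all 3 CDK2 probe sets, 1 of them above the Tag range on 1 array only, gave -0.31.

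**Figure D2:**
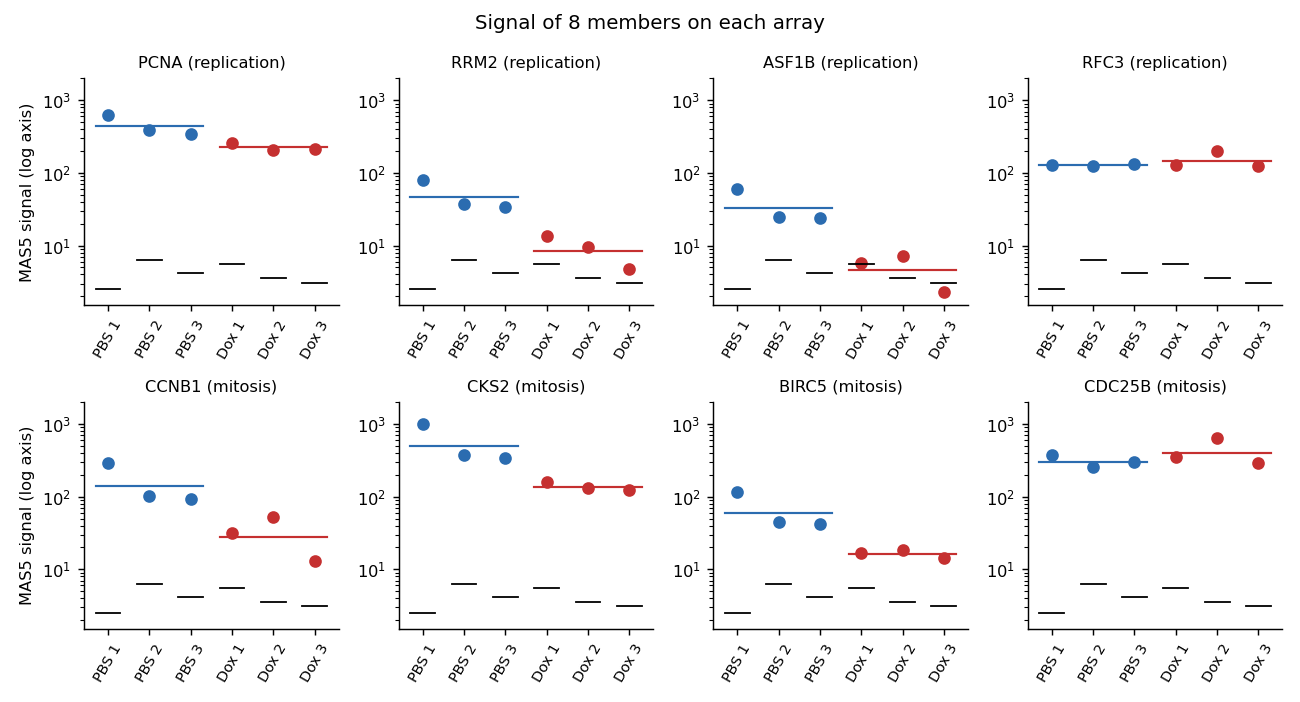
MAS5 signal (vertical log axis) of 4 replication and 4 mitosis genes on each of the 6 arrays, blue for PBS and red for Dox. Coloured lines are geometric means of 3 arrays and black dashes the highest Tag signal of each array; the groups are apart for PCNA, RRM2, ASF1B, CCNB1, CKS2 and BIRC5 and overlap for RFC3 and CDC25B.

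Among the mitosis genes, all 5 cyclin and CDK partner genes had non-overlapping groups with Dox lower, against 10.1% of all probe sets. Of these, 4 were above the Tag range on at least 3 arrays, against 12.4% without overlap among the probe sets equally above it. The remaining gene, CCNA2, was within the Tag range on all arrays but PBS replicate 1. Its order among those arrays is therefore one of signals within that range. CCNB1, which encodes the cyclin B1 subunit that activates CDK1, had signals of 293.8, 103 and 93.1 in controls and 31.1, 52.7 and 13.2 after Dox. The geometric mean was 5.07-fold lower in the Dox-injected group (log2 ratio -2.34, SE 0.58). CCNB2, the second B cyclin, had signals of 66.2, 27.3 and 15.6 against 7, 9.7 and 5.7, a log2 ratio of -2.06 (SE 0.55). PBS replicate 1 was the highest array for both cyclins. CCNA2, the S and G2 phase cyclin A2, was above the Tag range on PBS replicate 1 alone, with a signal of 20.5.

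CKS1B and CKS2 encode small proteins that bind CDKs. CKS2 had signals of 995.7, 374.3 and 344.9 with PBS and 157.9, 132 and 124.8 with Dox. The Dox-injected signals lay close together (138 ± 17.4, SD, n = 3), with a log2 ratio of -1.88 (SE 0.38). CKS1B had PBS signals of 313.2, 237.1 and 195.8 and Dox signals of 193.5, 169.1 and 80.7, a log2 ratio of -0.82 (SE 0.35). The difference between these paralogs was not tested.

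The chromosomal passenger complex corrects wrong attachments of chromosomes to the spindle, and 2 of its subunits were measured. AURKB, its kinase, had signals of 81.5, 46.6 and 46.8 in controls and 18.2, 5.4 and 16.5 after Dox (log2 ratio -2.26, SE 0.51). BIRC5, which encodes its subunit survivin, had signals of 116.9, 44.1 and 42.2 with PBS and 17, 18.4 and 14.2 with Dox (log2 ratio -1.87, SE 0.43). In both genes the highest Dox-injected signal was less than the lowest control. AURKA, the kinase of the spindle poles, had signals of 53.9, 22.9 and 15.9 in controls and 8.5, 12.4 and 4.1 after Dox, a 3.57-fold lower geometric mean (log2 ratio -1.84, SE 0.58). PLK1, a kinase that acts from mitotic entry to cytokinesis, had PBS signals of 25.8, 12.2 and 8.6 and Dox signals of 7.7, 7.5 and 9.2. Its groups overlapped, and its log2 ratio was -0.78 (95% interval -1.88 to 0.31).

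The spindle checkpoint holds back the APC/C until all chromosomes are attached. MAD2L1, its MAD2 protein, had signals of 294.6, 145.6 and 118.8 in controls and 82.1, 94.8 and 40.7 after Dox (log2 ratio -1.34, SE 0.42). CDC20, the APC/C activator that MAD2 inhibits, had signals of 81.9, 22.9 and 18.8 against 4.1, 11.4 and 6.4, the first Dox signal within the Tag range (log2 ratio -2.29, SE 0.63). UBE2C, the ubiquitin-conjugating enzyme of the APC/C, had signals of 442.9, 159.9 and 115.4 against 47.5, 90.2 and 90.1 (log2 ratio -1.47, SE 0.49). None of these 3 genes had overlapping groups. BUB3, a checkpoint protein with a further role outside mitosis in transcript processing, had signals of 650.1, 488.3 and 463.1 with PBS and 593.3, 619.4 and 340.3 with Dox, a log2 ratio of -0.08 (95% interval -0.69 to 0.53).

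NUSAP1, a protein that bundles spindle microtubules, had PBS signals of 253.9, 79.8 and 75.2 and Dox signals of 23.6, 44.1 and 51.6 (log2 ratio -1.61, SE 0.51). A dimmer NUSAP1 probe set had a log2 ratio of -0.74 (SE 0.63, limma adjusted p 0.695) with overlap. CENPF, a kinetochore protein, had signals of 115.9, 29.4 and 7.7 in controls and 9.4, 14.3 and 4.2 after Dox. PBS replicate 3 lay among the Dox-injected piglets, and the log2 ratio of -1.85 (SE 0.91, limma adjusted p 0.545) was -0.86 without PBS replicate 1. UBE2T, an E2 enzyme of DNA crosslink repair that was listed with the mitosis genes, had a log2 ratio of -0.70 (SE 0.37, limma adjusted p 0.562). KIF20A, a motor of cytokinesis, was above the Tag range on 2 arrays.

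The CDC25 phosphatases, which activate CDKs, had log2 ratios near or above 0. CDC25B had signals of 374.1, 252 and 295.5 with PBS and 355.7, 644.4 and 289.6 with Dox, a log2 ratio of 0.42 (95% interval -0.29 to 1.12). The groups overlapped, and Dox replicate 2 was the highest array. CDC25C had signals of 0.7 to 7.1 with a log2 ratio of -0.03 (95% interval -2.26 to 2.20), too wide to place it.

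Mitosis genes had the larger median difference. Their median log2 ratio was -1.61 over 19 genes, against -0.75 over 15 replication genes, so that the median of the mitosis genes was 0.86 further down (a difference of -0.86). Groups did not overlap for 12 of 19 mitosis and 9 of 15 replication genes, all with the Dox-injected piglets lower, against 10.1% of all probe sets. At a raw p up to 0.05 there were 12 of 19 and 6 of 15 lower, against 5.92%. Genes are not replicates, so no test across genes was made, and the arrays give the spread instead. Over the members above the Tag range on at least 3 arrays, the mean log2 signal relative to the PBS mean was 0.51, -0.21 and -0.30 in PBS-injected and -0.78, -0.79 and -1.33 in Dox-injected piglets for 12 replication genes. For 17 mitosis genes it was 0.88, -0.18 and -0.71 in PBS-injected and -1.29, -1.0 and -1.73 in Dox-injected piglets.

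In both classes every Dox-injected piglet lay below every PBS-injected piglet, with Dox replicate 3 the lowest and PBS replicate 1 the highest. The mitosis mean minus the replication mean was 0.38, 0.03 and -0.41 in PBS-injected and -0.51, -0.21 and -0.40 in Dox-injected piglets. These values overlapped between the groups, since PBS replicate 3 lay among the Dox-injected piglets. By these means, the larger shift of the mitosis genes was thus not separated from the spread between control animals. The medians are another measure, over all measured members, and give no spread by animal. They differed by -0.86 with all arrays and by -0.46 without PBS replicate 1.

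**Figure D3:**
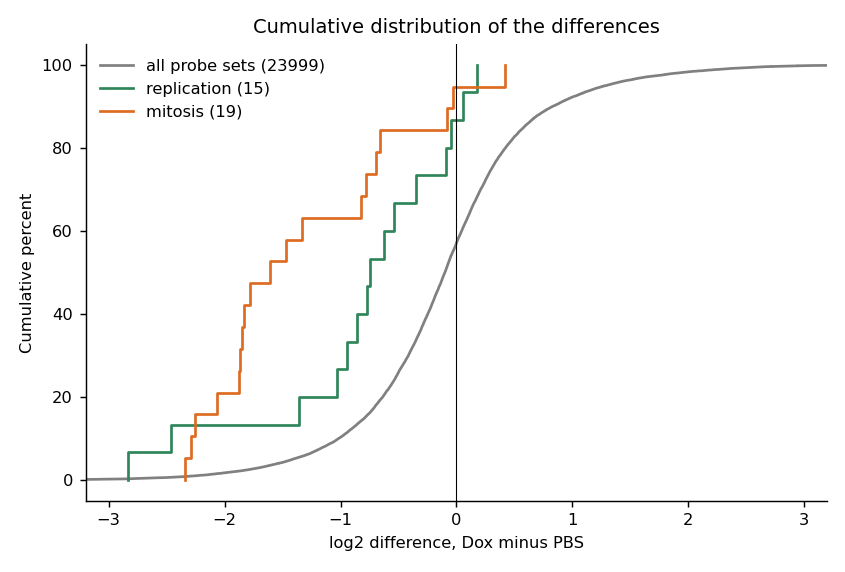
Cumulative percent (vertical axis) of genes or probe sets at or below each log2 ratio of Dox to PBS (horizontal axis), for 15 replication genes, 19 mitosis genes and all 23999 probe sets. Both coloured curves lie to the left of the grey one over most of the range, with medians of -0.75 and -1.61 against -0.10.

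PBS replicate 1 had the highest signal of the 6 arrays for 30 of 35 members, against 22.6% of all probe sets. Its log2 signal exceeded the mean of the other PBS arrays by a median of 1.14 over the members and by 0.03 over all probe sets. The excess was 1.47 as a median over the mitosis genes and 0.90 over the replication genes. It was 2.95 for CENPF, 1.98 for CDC20, 1.47 for CKS2, 0.76 for PCNA and -0.01 for RFC3.

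Without PBS replicate 1, the median log2 ratio was -0.64 over the members and -0.11 over all probe sets. It was then -0.95 for mitosis and -0.49 for replication genes. The groups did not overlap, with Dox lower, for 22 of 35 members, against 14.4% of all probe sets in that comparison, where 3 arrays stand against 2. POLE2 was the 1 member in the reverse order, against 9.41% of all probe sets. At a raw p up to 0.05 from limma 11 members were lower, against 2.50% of all probe sets, and all 11 were among the 19 counted with all arrays. Of all 35 members, 27 stayed below 0 when any single array was left out. The 19 with full statistics, which include MCM2 and not CCNA2, were all among them. Most of these were chosen by their p on these same arrays. ASF1B then stood at -2.40, RRM2 at -2.06, AURKB at -1.99 and CCNB1 at -1.81 without PBS replicate 1, whereas BUB3 was at 0.07.

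**Figure D4:**
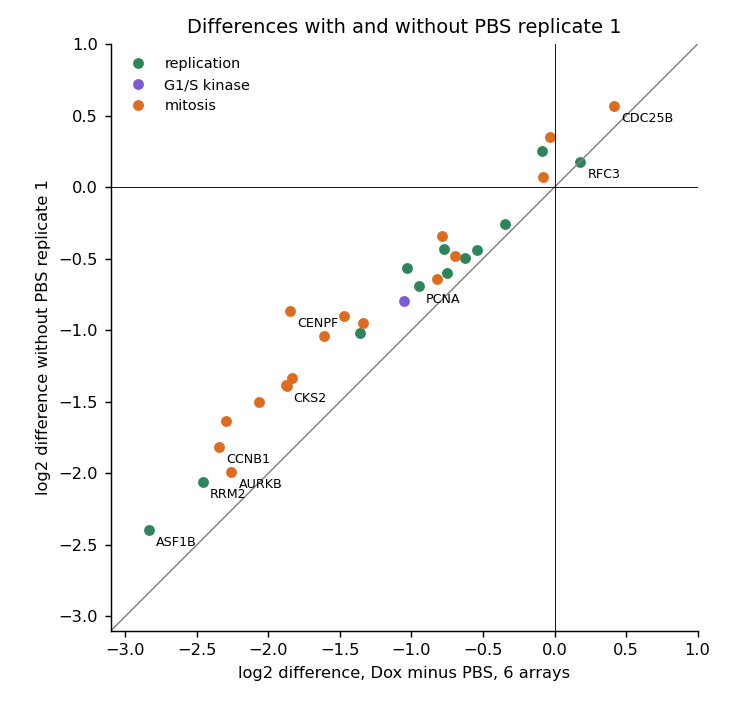
Log2 ratio of Dox to PBS with all 6 arrays (horizontal axis) and without PBS replicate 1 (vertical axis) for the 30 members above the Tag range on at least 3 arrays, coloured by class, with the line of equality in grey. Most points lie above the line, closer to 0 without that array, and ASF1B, RRM2, AURKB and CCNB1 stay furthest below 0.

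Other genes listed for the same processes were also read. Of 84 further mitosis genes 30 were measured, 27 of them below 0, with a median log2 ratio of -0.88 and no overlap, with Dox lower, for 18, against 10.1% of all probe sets. At a raw p up to 0.05 there were 15 lower and 0 higher, against 5.92% and 3.62% of all probe sets. RACGAP1, a cytokinesis regulator, had PBS signals of 234.1, 99.7 and 89.4 and Dox signals of 26.5, 52.2 and 24 (log2 ratio -1.99, SE 0.44). NDC80, the kinetochore protein that grips microtubules, had a log2 ratio of -1.95 (SE 0.52), NEK2, a centrosome kinase, of -1.88 (SE 0.48), and CDCA3, a trigger of mitotic entry, of -1.92 (SE 0.52).

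Of 48 further replication genes 29 were measured, 23 below 0, with a smaller median log2 ratio of -0.31. At a raw p up to 0.05 there were 5 lower and 1 higher of these 29, against 5.92% and 3.62% of all probe sets. TOP2A, the topoisomerase II of dividing cells and a target of Dox, had signals of 224.8, 55.1 and 42.9 in controls and 25.9, 17.7 and 12.5 after Dox (log2 ratio -2.18, SE 0.60). ORC1, the origin recognition subunit whose level rises toward S phase, had signals of 30.8, 13.2 and 9.9 against 3.9, 4.8 and 4.2, the first Dox signal within the Tag range (log2 ratio -1.89, SE 0.51). Neither had overlapping groups. RPA2, a subunit of the single-strand binding protein, had a log2 ratio of -1.50 (SE 0.53), with Dox replicate 3 lowest at 17.2. DNMT1, the maintenance DNA methyltransferase, went the other way, with signals of 340.3, 363.6 and 435.2 with PBS and 641.6, 515.2 and 718.7 with Dox (log2 ratio 0.71, SE 0.20).

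Chromatin proteins that are abundant in cycling cells had a median log2 ratio of -0.71 over 10 of 17 listed genes, with 3 lower and 0 higher at a raw p up to 0.05, against 5.92% and 3.62% of all probe sets. H2AFZ, a histone variant, had PBS signals of 1480.9, 816.6 and 675.8 and Dox signals of 495, 434.3 and 574.3 (log2 ratio -0.91, SE 0.29). LMNB1, lamin B1, had a log2 ratio of -1.65 (SE 0.57), which was -0.98 without PBS replicate 1. EED, a Polycomb subunit, had -1.04 (SE 0.37), and ASF1A, the paralog of ASF1B, -0.66 (SE 0.29, limma adjusted p 0.523).

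Of 42 genes of DNA damage checkpoints and repair 17 were measured, 15 below 0, with a median log2 ratio of -0.75. It was -0.27 without Dox replicate 3. At a raw p up to 0.05 there were 5 lower and 0 higher of these 17, against 5.92% and 3.62% of all probe sets. CHEK2, a checkpoint kinase, had signals of 32.4, 15.2 and 15.6 in controls and 6.3, 7 and 6.1 after Dox (log2 ratio -1.61, SE 0.42). FANCD2, a crosslink repair gene, had a log2 ratio of -1.12 (SE 0.39), and MRE11, a nuclease of double-strand break repair, of -1.08 (SE 0.36). None of these 3 genes had overlapping groups.

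The regulators that were measured were more mixed, and E2F1, E2F2, E2F4 and RB1 were not among them. Of 24 E2F, RB and DREAM complex genes 9 were measured, 6 below 0, with a median log2 ratio of -0.06 that turned above 0 under quantile, cyclic loess and median scaling, with array weights and without Dox replicate 3. MYBL2, the B-MYB factor of G2 and M phase genes, had signals of 83.6, 24.4 and 15 with PBS and 11.7, 17.6 and 9.2 with Dox (log2 ratio -1.34, SE 0.61, limma adjusted p 0.532), and -0.63 without PBS replicate 1. FOXM1, its partner factor, had a log2 ratio of -1.20 (SE 0.75, limma adjusted p 0.606) and was above the Tag range on 3 arrays. MYC, a growth factor-responsive activator, had signals of 62.7, 143.4 and 81.2 against 141.6, 336.2 and 1044.5 (log2 ratio 2.03, SE 0.65). Its groups overlapped slightly. TFDP2, a dimer partner of E2F factors, had a log2 ratio of 0.41 (SE 0.34, limma adjusted p 0.688) with overlap.

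Of 10 genes of CDK inhibitors and related antiproliferative factors 8 were measured, with a median log2 ratio of 0.27. CDKN1A, the p21 inhibitor of CDK2, had PBS signals of 275, 213.8 and 311.8 and Dox signals of 810.8, 698.2 and 835.7 (log2 ratio 1.56, SE 0.20, limma adjusted p 0.428), and 1.59 without PBS replicate 1. Unlike most members, CDKN1A did not set PBS replicate 1 apart. BTG2, an antiproliferative gene, had a log2 ratio of 2.08 (SE 0.85) with overlap, and CDKN2D, the p19 inhibitor of CDK4 and CDK6, of -0.54 (SE 0.24, limma adjusted p 0.523) without overlap. BTG1, the paralog of BTG2, had a log2 ratio of 0.40 (SE 0.32, limma adjusted p 0.675) with overlap.

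Markers of other cell types in the tissue also differed between the groups. The mean log2 signal of 8 of 10 fibroblast markers relative to the PBS mean was 0.42, -0.30 and -0.12 in PBS-injected and -0.44, -1.23 and -1.97 in Dox-injected piglets, with a median log2 ratio of -1.01. Their summed signal was 3415.5 to 6240.3 with PBS and 1231.4 to 3420.8 with Dox. DCN, the matrix proteoglycan decorin, had signals of 1712.9, 1450.3 and 1861.7 in controls and 1231.5, 853.1 and 661.8 after Dox. Beside these, the mitosis means were -1.29, -1.0 and -1.73 on the same Dox arrays. The part of fibroblast content in the results was not tested.

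The 10 endothelial markers had a median log2 ratio of -0.35 and summed signals of 1572.6 to 2367 with PBS and 1456.4 to 1490.4 with Dox. TIE1, a receptor kinase of vessels, had signals of 91.4, 44.6 and 41.8 against 30.7, 18.2 and 20.9 (log2 ratio -1.29, SE 0.39), and CDH5, the cadherin of endothelial junctions, of 709.2, 440.5 and 490.6 against 393.2, 342.4 and 293.3 (log2 ratio -0.65, SE 0.23). The groups did not overlap for either, and these were the only 2 of the 10 without overlap, against 10.1% of all probe sets. Of the 10, 7 had a log2 ratio below 0 and 3 above 0, FLT1 at 0.48, VWF at 0.15 and ENG at 0.05. PBS replicate 1 was highest for 5 of these 10, among them PECAM1, an adhesion molecule, at 797.2 against 336.4 to 522.3 on the other arrays, where the groups overlapped. The 12 cardiomyocyte markers had a median log2 ratio of 0.30, which was -0.04 after quantile normalization, and summed signals of 54958 to 66827 and 67048 to 87294. The 12 of 16 measured leukocyte markers had a median log2 ratio of 0.24 and summed signals of 285.9 to 358.4 with PBS and 406.8 to 1267.1 with Dox, where the highest sum, on Dox replicate 2, held an S100A9 signal of 681.5. The T cell genes CD3D, never above the Tag range, and CD3E, at 2.7 to 10, were dim.

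Red cell precursor genes marked PBS replicate 1 too. ALAS2, the haem synthesis enzyme of erythroid cells, had a signal of 437.1 there against 49.9 and 58.4 in the other PBS-injected piglets and 108, 18.1 and 83.4 in Dox-injected piglets. The 3 measured red cell markers had summed signals of 186.8 to 683.6 with PBS and 106.1 to 251.1 with Dox, and a median log2 ratio of 0.02 without PBS replicate 1. The 6 smooth muscle and pericyte markers had a median log2 ratio of -0.07 and summed signals of 3238.1 to 4891.5 and 3176.3 to 4087.6. For endothelial, leukocyte, cardiomyocyte, smooth muscle and red cell content, the part in the results was not tested.

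**Figure D5:**
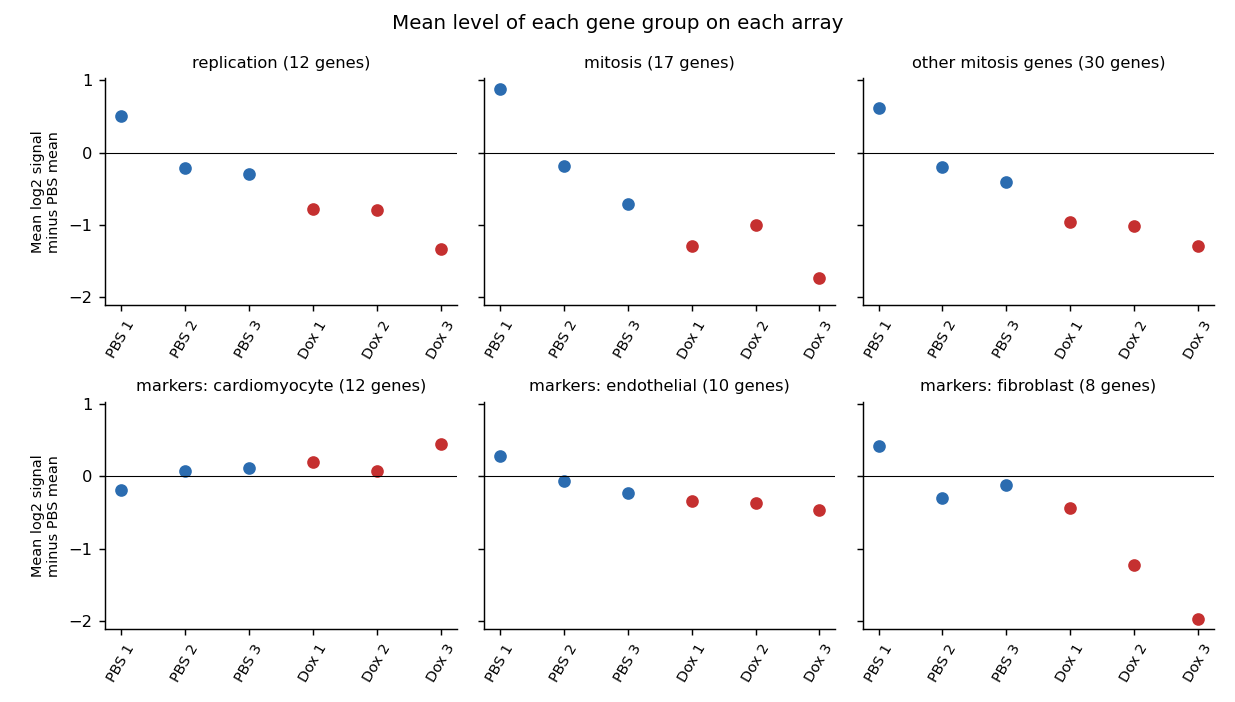
Mean log2 signal of 6 gene groups relative to the mean of the PBS arrays (vertical axis) on each array (horizontal axis), blue for PBS and red for Dox. All groups but the cardiomyocyte markers are lower in each Dox-injected than in each PBS-injected piglet and highest on PBS replicate 1. The fibroblast markers reach -1.97 on Dox replicate 3, and the cardiomyocyte markers stay within -0.19 to 0.45.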

How the data were processed

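RNA of 6 piglets was measured on 6 Affymetrix Porcine Genome Arrays. The deposited intensities are linear MAS5 signals of probe sets, made by the authors in GCOS (version 1.4 in the submitters' processing notes, default settings in the paper). The 2% trimmed mean of an array lay between 100.03 and 100.04, and this scaling was kept. Groups and replicate numbers came from the sample titles.

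Of 24123 probe sets, 124 array controls were left out and 23999 tested. Zero signals (311 probe sets on 1 or more arrays) were raised to 0.1 before log2. In R 4.3.3, limma 3.58.1 (lmFit, eBayes with an intensity trend) was fitted to the group difference over all probe sets, with Benjamini-Hochberg adjustment. The methods' t-test on log2 signals was an alternative. Gene names are those of the platform annotation (10069 with 1 symbol, 198 with several, 13732 with none). Lists are described by counts and medians, without set tests. Full statistics are given for members above the Tag range on at least 3 arrays that had a raw limma p up to 0.05 (or, with under 6 such in a class, its 6 smallest p), and for a few fixed genes, of which PCNA, RRM2, CCNB1 and MCM2 were above that range. Up to 4 genes with the smallest p were named per further gene list (1 such gene is not reported here). Other genes, cell type markers included, were chosen after their values were seen. The members and lists were chosen with earlier results of these data known. The scripts were tested on simulated data. The alternatives were other scalings, an offset of 16, array weights, omission of dim probe sets, no eBayes trend, a replicate block, all probe sets per gene, updated symbols and leaving out each array. A planned promoter motif count was not made, as sequences were not used here. Plots came from matplotlib 3.10.9 (Python 3.11.15). The sources used here do not say whether the piglets were littermates, and p-values measure only the spread between these animals, where the number of arrays limits the precision.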

Additional observations from a re-analysis of the deposited data

How the results depend on the processing

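The median log2 difference of the members stayed below 0 under every alternative run, with 0 members called in each. The fit without an eBayes trend, the replicate block and the methods' t-test cannot change that median. Under quantile, cyclic loess and median scaling, the replication median was -0.57, -0.55 and -0.52, and the mitosis median -1.46, -1.42 and -1.38. The median of all probe sets was then -0.0039, -0.00088 and 0.13. Members lower without overlap numbered 22, 21 and 18 under these scalings, for which the share over all probe sets is not given. Over the whole array, 14 probe sets were called without Dox replicate 1 and 0 in every other setting. Leaving out 1 array, the median was -1.92 to -0.95 for mitosis genes and -0.95 to -0.49 for replication genes. Without Dox replicate 3 these medians were -1.53 and -0.56. The mitosis median minus the replication median was -1.05 to -0.46 with 1 array left out (-0.53 with 16 added before log2). The members lower at a raw p up to 0.05 numbered 11 to 21 with 1 array left out and 11 with the methods' t-test. The 11 without PBS replicate 1 stood against 2.50% of all probe sets, and the 11 of the t-test against 4.34%. Members higher without overlap numbered 0 to 1 with 1 array left out and 2 under median centring, an alternative chosen after the values were seen, which moved the median of all probe sets to 0.13, and array weights gave 1 member higher at a raw p up to 0.05. The replicate block gave 21 members lower at that p. Counts in this paragraph without a share of all probe sets beside them are not read against the background. Deviations of same-numbered animals correlated at -0.01, 0.02 and -0.06 over all probe sets, which cannot settle whether the numbers pair them. The paper speaks of pairs of failing and non-failing samples and does not say how these were formed. For the 19 members with full statistics, most of them chosen by their p on these same arrays, all 304 alternative values had the same direction. Part of this was fixed in advance. Omission of dim probe sets, no eBayes trend, the replicate block and the t-test leave the log2 ratio of a gene as it was. Averaging does so for genes with 1 probe set. No member passed the threshold, and sizes moved under the other alternatives. Averaging all probe sets of a gene gave -0.070 for FEN1, -0.31 for CDK2, -0.56 for MCM2 and -1.22 for ASF1B. Adding 16 gave -1.24 for ASF1B, -1.35 for RRM2, -0.58 for MCM3, -1.34 for AURKB, -1.04 for CCNB2, -1.14 for CDC20, -0.88 for AURKA and -0.68 for MCM2. Array weights gave -0.69 for CDK2, -1.56 for CCNB1, -1.18 for AURKA, -0.86 for MAD2L1 and -0.52 for CKS1B, and median centring -0.39 for RRM1. Without Dox replicate 3, CDK2 was at -0.67 and CKS1B at -0.43, and without PBS replicate 1, NUSAP1 was at -1.04, UBE2C at -0.90 and MCM2 at -0.56. The planned promoter motif count was not run.

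Among the other lists, the regulator median was 0.047 (quantile), 0.056 (cyclic loess), 0.17 (median centring), 0.019 (array weights) and -0.10 to 0.087 with 1 array left out. The cardiomyocyte median was -0.036 (quantile), 0.021 (cyclic loess) and 0.53 (median centring). Median centring gave -0.079 for further replication genes, -0.12 for endothelial and 0.16 for smooth muscle markers. Without dim probe sets the endothelial median was -0.14 and the leukocyte median 0.59. With 1 array left out the medians were -0.94 to -0.27 for DNA damage genes and, among markers, -0.47 to -0.13 for endothelial, -0.17 to 0.079 for smooth muscle and -1.48 to 0.017 for red cell genes. The cause of these shifts was not tested.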
